A study of Homo sapiens with 24 samples.

Results

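The genes described are the replication-dependent histone genes, which encode the core histones H2A, H2B, H3 and H4 and the linker histone H1 that package DNA newly made in S phase. Members were chosen by symbol: protein-coding rows of the deposited table whose Ensembl ID maps to H1-1 to H1-5 or to a symbol starting H2AC, H2BC, H3C or H4C followed by digits. The rule gave 69 members among 65180 gene IDs, out of 82 IDs with such a symbol before the protein-coding filter. They comprise 5 genes for H1, 17 for H2A, 19 for H2B, 13 for H3 and 15 for H4. On GRCh38, 54 lie in the large cluster on chromosome 6, 11 in the cluster at 1q21, 2 in the cluster at 1q42, and 1 each on chromosomes 12 and 21.

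RNA was poly(A)-selected and sequenced from HK-2, an immortalised human line of proximal tubular epithelium used in every group. All cells were deprived of serum overnight and then kept for 24 h in their condition. The groups were hypoxia at 0.3% oxygen with BAY (3 libraries), hypoxia with solvent (3), normoxia with TGF-β1 and BAY (5), normoxia with TGF-β1 (5), normoxia with BAY (3) and normoxia with solvent (5). BAY activates soluble guanylate cyclase, which produces the second messenger cyclic GMP. Its final concentration is labelled as 1 mM, a doubtful value that may be a misprint of the unit. TGF-β1, a cytokine that drives fibrosis-like changes in tubular cells, was used at 2 ng/mL. Control cells received the solvents of both agents, DMSO and HCl with albumin. Replicates are labelled biological, but what set them apart is not said, so the p-values reflect the spread among these libraries, which may be technical.

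Most mRNAs end in a poly(A) tail, but replication-dependent histone mRNAs normally end just after a conserved stem-loop in the 3′ untranslated region. SLBP binds the stem-loop, a complex containing the U7 snRNP cuts the pre-mRNA just past it, and the mature mRNA is rapidly degraded when DNA synthesis stops. Some of these genes also give poly(A) transcripts, by reading past the stem-loop to a downstream poly(A) signal or by splicing, and such forms are known from differentiating and non-dividing cells. Poly(A) selection enriches the tailed fraction of these mRNAs and can carry over some tail-less RNA. The tails of the sequenced molecules were not measured here. Fewer cells in S phase and less RNA per cell cannot be told apart in bulk libraries.

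The stem-loop was searched for in GENCODE 29 transcripts, within 120 bases of the stop codon, as a hairpin of 6 base pairs around 4 loop bases. It was found in 30 members. In 32 of the other 39, the annotated transcript is the coding sequence alone, so the search could find no hairpin there. The 9 below are shown because they include the most abundant members with a hairpin and both pairs of copies discussed next. Each line gives 26 bases of the transcript strand with the 16-base hairpin in capitals.
H2AC6: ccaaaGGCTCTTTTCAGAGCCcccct
H2BC5: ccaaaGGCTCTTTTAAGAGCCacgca
H2BC4: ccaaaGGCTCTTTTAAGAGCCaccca
H2BC21: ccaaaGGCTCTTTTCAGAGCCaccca
H3C6: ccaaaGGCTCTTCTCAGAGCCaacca
H4C14: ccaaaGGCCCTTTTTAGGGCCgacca
H4C15: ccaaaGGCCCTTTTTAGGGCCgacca
H2AC18: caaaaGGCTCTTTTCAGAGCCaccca
H2AC19: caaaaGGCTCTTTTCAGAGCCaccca
The hairpins of H2A, H2B and H3 shown here share one stem, whereas both H4 hairpins have another. The 26 bases are the same in H4C14 and H4C15, and likewise in H2AC18 and H2AC19. In H2AC6 the hairpin lies at chr6:26124669-26124684 (plus strand), 43 bases after the stop codon, and the longest annotated transcript runs on for 1128 bases past it. The same distance was 1862 bases in H3C6, 1729 in H2BC21, 1314 in H4C15 and 39 in H2BC5. No hairpin lies within the annotated transcripts of H2BC12 (381 bases) or H1-2 (642 bases), which hold the coding sequence alone, so their real 3′ ends are not given by that annotation.

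The total per library was 78862372 to 105571090 counts. Of the epithelial and tubular markers, PAX8 (a renal transcription factor) and GGT1 stood at 219 to 609 and 65.5 to 298 CPM in the 6 group means (counts per 1000000, TMM-scaled), whereas HNF4A and LRP2, the megalin of mature proximal tubule, were under 1 CPM in all of them. Of the 9 markers of other cells, CD3E and UMOD were at 0 in every group mean, and the leukocyte marker PTPRC was at most 0.0359 CPM. Not all 9 were absent, since 1 of them had enough counts to be tested in each fit. Among groups of 5, libraries fell apart along the first component of their deviations from the group means, which held 21.0% of that variance. Replicates 1 and 2 of both TGF-β1 groups and 1, 2 and 5 of normoxia with solvent lay on one side, and the other replicates of these groups on the other. The labels give no batch that matches this. The split moved with several members, so counts within each side are given beside the counts over all libraries. The hypoxic groups and normoxia with BAY were not split, and all their libraries stand in the fits of both sides. The share of all genes called is not given for these smaller fits, so their counts have no background beside them.

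Histone RNA in the poly(A) libraries came from few genes. The 69 members summed to 85.6 CPM on average over the 24 libraries, with a range of 44.8 to 154 CPM. H2BC12 alone gave 27.8% of that sum, the 3 most abundant members gave 56.6%, and the top 12 gave 88.7%. Only 13 members averaged at least 1 CPM and 4 at least 5 CPM, while 33 were under 0.1 CPM. H2BC1, H4C7 and H4C13 were at 0 in all 24 libraries. By mean CPM the order was H2BC12 (23.8), H2AC6 (15.7), H2BC5 (8.93), H1-2 (5.95), H3C6 (4.06), H4C15 (4.02), H2BC21 (2.97), H2BC4 (2.74), H4C14 (2.33), H2BC15 (1.97), H2AC18 (1.95) and H2BC11 (1.48).

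Long transcripts can collect more reads, so levels between genes are compared per kilobase. Per kilobase of longest annotated transcript, H2BC12 was at 62.5 CPM, H2BC5 at 11.3, H2AC6 at 9.40 and H1-2 at 9.26, and the order of the first 3 by coding length was H2BC12 (62.5), H2AC6 (39.9) and H2BC5 (23.4). H2BC12 thus led on both scales, but for this gene both divide by the same 381 bases of coding sequence. Its real 3′ end is not given by that annotation, so its lead per kilobase rests on a length that may be too short. The 22 members with an annotated transcript more than 100 bases past the hairpin held 44.3% of the summed CPM, the 8 whose transcripts end within 100 bases held 14.0%, and the 39 without a hairpin in their transcripts held 41.7%. Of those 39, 32 (37.3% of the sum) are annotated as coding sequence alone, so these shares do not divide genes with and without a stem-loop. The 13 members with a spliced transcript held 51.0% of the sum, and their median was 1.97 CPM, against 0.0678 CPM for the 56 without one. These shares describe GENCODE 29 transcripts and not the tails of the sequenced molecules.

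Many members are near copies, which limits what a value of a single gene means. All 13 H3 genes encode only 2 distinct proteins, with 10 genes encoding the same one, and 14 of the 15 H4 genes encode the same protein. At the RNA level most copies still differ: the median share of 31-base stretches found in no other gene was 96.9% for H4, 92.4% for H3, 84.6% for H2B and 76.9% for H2A. Some copies hold few stretches of their own: 0% in H2AC18 and H4C12, 1.44% in H4C14, 2.79% in H4C15 and 17.8% in H4C11.

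The reads of these copies jumped within pairs. H2AC19 was at 0 in 21 libraries, and in the other 3 H2AC18 was at 0 instead. These were hypoxia with solvent replicate 1 (H2AC19 at 3.81 CPM), TGF-β1 replicate 2 (1.99 CPM) and normoxia with solvent replicate 1 (2.08 CPM). The summed pair was steady: 3.81, 3.90 and 3.68 CPM in hypoxia with solvent, against 2.08, 2.12, 1.90, 1.50 and 2.00 CPM in normoxia with solvent. H4C14 ran from 0.354 to 3.64 CPM within normoxia with solvent alone, and H4C15 was at 0 in TGF-β1 replicate 4, where H4C14 was at 2.24 CPM. H4C14 plus H4C15 was at 4.71, 4.89, 4.68, 4.66 and 5.57 CPM in normoxia with solvent, so the sum varied far less than either copy. H4C11 and H4C12 traded reads in the same manner, with H4C11 at 0 in 8 libraries and H4C12 in 3. The changes of these 3 pairs are therefore given as sums below, from a fit in which each pair was summed first, a choice made after seeing the data.

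**Figure D1:**
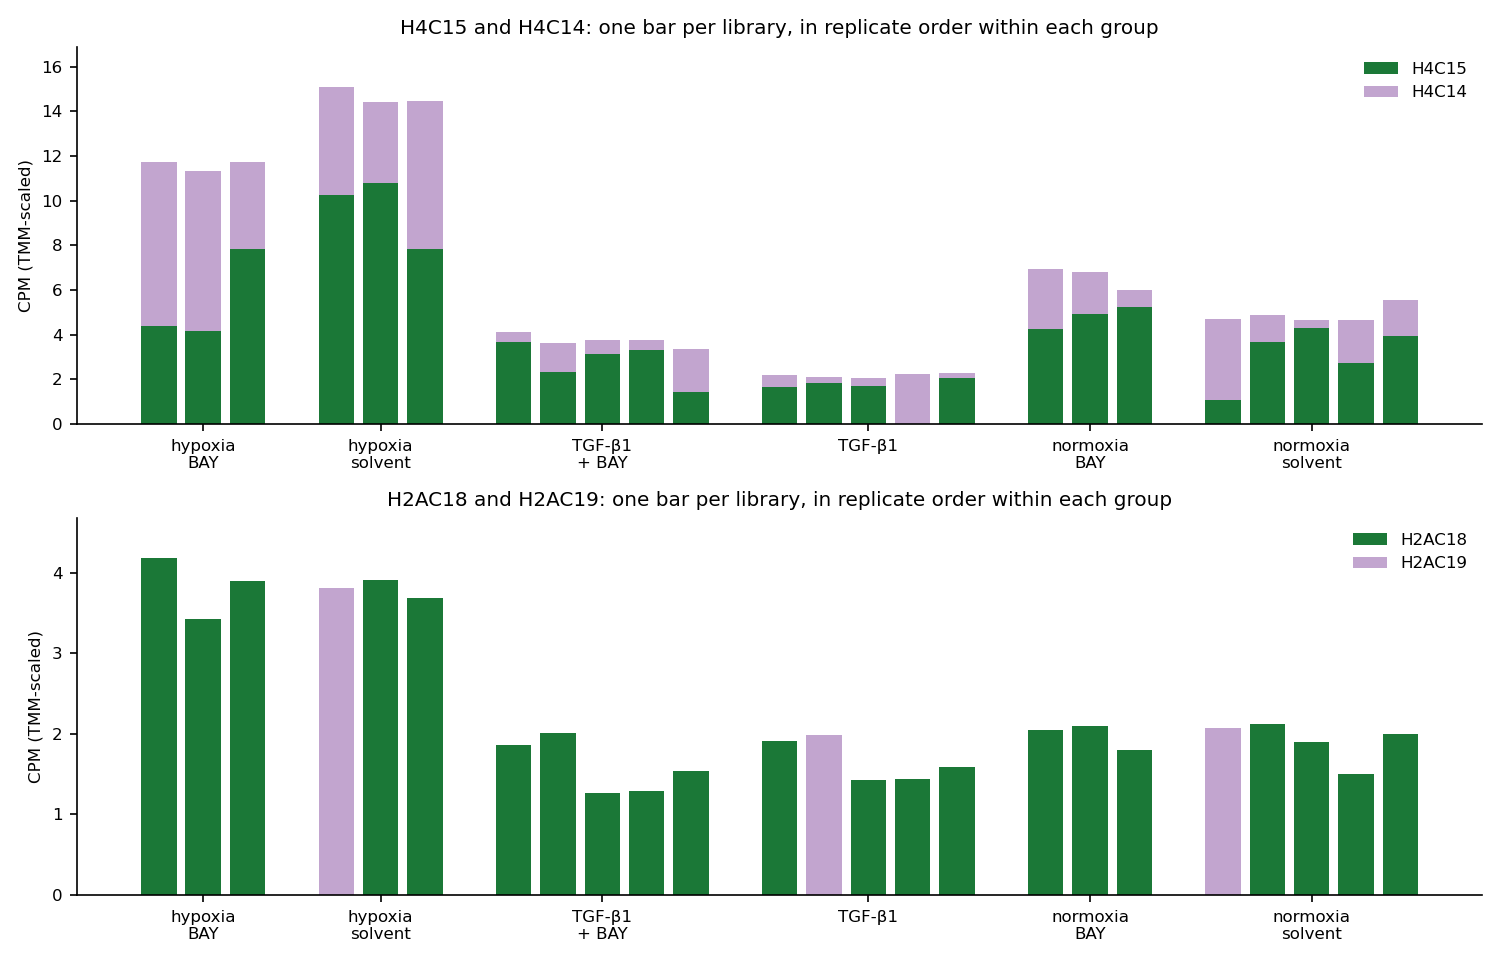
CPM of H4C15 and H4C14 (upper panel) and of H2AC18 and H2AC19 (lower panel), stacked, with 1 bar for each of the 24 libraries in their 6 groups. The height of a bar is the sum of both copies; the split inside bars changes between replicates while the heights stay close, and H2AC19 takes the whole bar in 3 libraries.

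H2BC12 poses another question of shared reads. Only 13.7% of its 31-base stretches are its own, and 74.4% also occur in H2BC12L on chromosome 21. The same share occurs in a further annotated gene, H2BFS, whose CPM is not given here, and 29.1% occur in H2BC6. H2BC12L averaged 0.0356 CPM, so that H2BC12 plus H2BC12L came to 23.9 CPM, against 23.8 CPM for H2BC12 alone. No value of H2BC12 was a whole number in any library (to within 1e-06), against 58.3% of the values of H2AC6 and 87.5% of those of H1-2. The division of reads between H2BC12 and the genes that share its stretches was not tested. Reads of overlapping genes cannot be told apart without the strand setting, which was not given: H2BC5 overlaps the pseudogene LARP1P1 and, like H2BC6, an antisense gene, H2BC15 overlaps other histone genes, and H4C14 and H4C15 each lie antisense to an H3 gene.

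Promoters of these genes carry shared elements, shown for the 4 members with the highest mean CPM. One search was for TATAAA, the TATA box. Another was for the CCAAT box. The last was for ATTTGCAT, an octamer bound by OCT factors. Both strands of the 250 bases before the start were searched. In RefSeq promoters (GRCh38.p14), matched for 63 of 69 members, TATAAA was present in 66.7% of members against 10.7% of all promoters, CCAAT in 84.1% against 32.0%, and the octamer in 41.3% against 1.63%. The octamer was found in 77.8% of H2B and 68.8% of H2A promoters, in 9.09% of H3 promoters and in 0% of H1 and H4 promoters. The H2A and H2B shares are not independent, since some neighbouring genes on opposite strands have overlapping windows. The octamers of H2AC6 and H2BC4 are the same bases, as are those of H2AC1 and H2BC1 and those of H2AC7 and H2BC7. The H3 match was 1 of 11 promoters, that of H3C4, whose window is identical to that of the H2A gene H2AC7. This window was counted for both genes in each search, so no H3 gene with a window of its own had the octamer. The CCAAT box was in 100% of H1, H2A, H2B and H3 promoters and in 23.1% of H4 promoters. A match describes letters and not a bound site. Each line gives the 150 bases before the start, with matches in capitals.
H2AC6: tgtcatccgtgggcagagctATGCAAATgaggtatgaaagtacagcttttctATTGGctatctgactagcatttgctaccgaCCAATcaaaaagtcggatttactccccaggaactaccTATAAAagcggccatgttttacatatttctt
H2BC5: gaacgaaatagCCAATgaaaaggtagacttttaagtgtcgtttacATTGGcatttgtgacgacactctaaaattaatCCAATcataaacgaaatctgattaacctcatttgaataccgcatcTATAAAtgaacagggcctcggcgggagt
H2BC12: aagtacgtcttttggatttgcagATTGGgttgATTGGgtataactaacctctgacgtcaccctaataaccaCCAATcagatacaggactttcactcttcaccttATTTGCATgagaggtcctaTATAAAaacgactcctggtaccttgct
H1-2: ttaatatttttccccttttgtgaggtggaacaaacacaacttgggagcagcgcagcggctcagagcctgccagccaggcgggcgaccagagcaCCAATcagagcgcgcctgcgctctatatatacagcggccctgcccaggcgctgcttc
The H2AC6 window is chr6:26124022-26124171 (plus strand), that of H2BC5 chr6:26157971-26158120 (plus strand), that of H2BC12 chr6:27146859-27147008 (minus strand) and that of H1-2 chr6:26056471-26056620 (minus strand). H2AC6 and H2BC12 hold the octamer in these windows, whereas the windows of H2BC5 and H1-2 hold none, and H1-2 has no TATAAA either.

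Summed over all members, histone RNA in these poly(A) libraries was highest in the hypoxic groups. The sum was 143 ± 12.3 CPM in hypoxia with BAY (SD, n = 3) and 133 ± 8.47 CPM in hypoxia with solvent (n = 3). It was 68.6 ± 7.60 CPM with TGF-β1 and BAY (n = 5) and 49.8 ± 5.65 CPM with TGF-β1 (n = 5). In normoxia it was 96.5 ± 3.80 CPM with BAY (n = 3) and 68.7 ± 6.77 CPM with solvent (n = 5). All libraries of normoxia with BAY (93.1 to 101 CPM) lay above all of normoxia with solvent (61.2 to 75.7 CPM), all hypoxic libraries lay above both, and every TGF-β1 library (44.8 to 57.0 CPM) lay below every solvent library. The hypoxic groups overlapped, with 154, 147 and 130 CPM with BAY and 139, 137 and 124 CPM with solvent.

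The classes did not share one pattern. H2A was at 47.0 CPM in hypoxia with solvent, against 13.0 CPM in normoxia with solvent, and H1 at 9.84 against 4.02 CPM. H2B, which is mostly H2BC12 in normoxia, was at 49.2 CPM in hypoxia with solvent, against 38.4 CPM in normoxia with solvent. Without H2BC12 the sum over members was 118 CPM in hypoxia with solvent, against 43.8 CPM in normoxia with solvent.

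**Figure D2:**
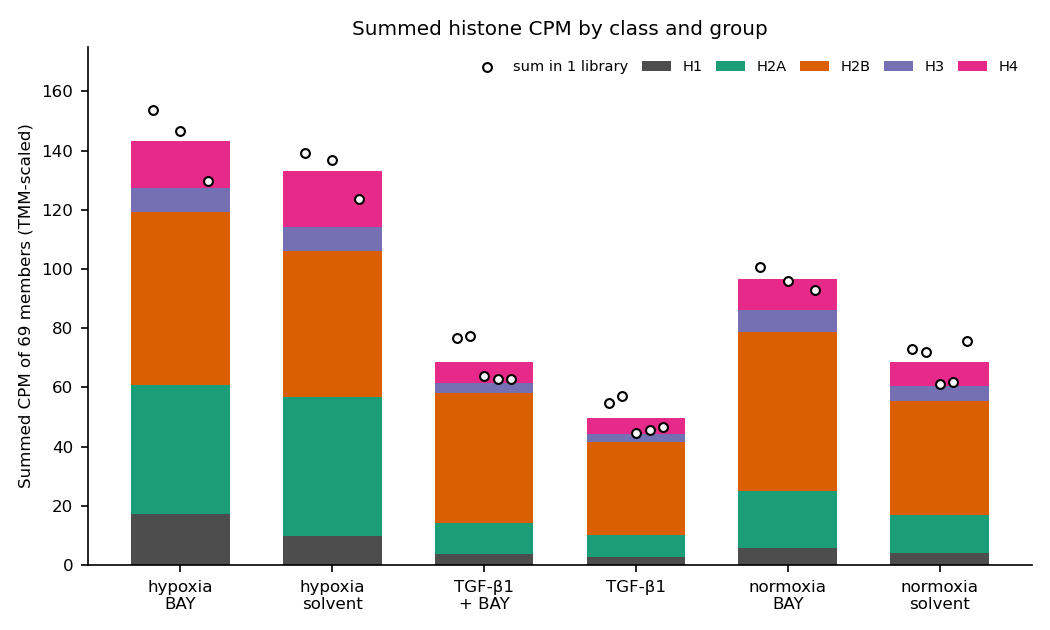
Summed CPM of the 69 members (y axis) in the 6 groups (x axis). Stacked bars give group means by histone class and open circles the sum in each library; the hypoxic libraries, at 124 to 154 CPM, lie above all others, and the TGF-β1 libraries without BAY, at 44.8 to 57.0 CPM, lie lowest.

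Hypoxia against normoxia in solvent asks what low oxygen does to histone RNA in poly(A) libraries. The filter on low counts kept 39 of the 69 members here and 40 in the TGF-β1 fit. Of these 39, 18 were higher and 4 lower in hypoxia at an adjusted p under 0.05 (edgeR quasi-likelihood test, 14 libraries). The background was large: of all 21316 genes tested, 60.8% were called, 29.2% higher and 31.6% lower. The tested members had a median log2 fold change of 0.53, against -0.02 for all genes tested. With the normoxic solvent libraries of each side alone, the counts were 14 higher and 3 lower, and 15 higher and 3 lower. Both counts use the same hypoxia libraries, so they are not separate repeats of the comparison.

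H2BC5, an H2B gene, rose most among the abundant members. It was at 23.3, 21.8 and 17.9 CPM in hypoxia with solvent, against 5.13, 4.96, 3.47, 3.71 and 4.90 CPM in normoxia with solvent. The log2 fold change was 2.23 (SE 0.13, adjusted p = 1.8e-09). H2AC6, an H2A gene of the same cluster, was at 42.4, 41.5 and 39.3 CPM in hypoxia with solvent, against 10.2, 10.7, 6.95, 7.30 and 11.5 CPM in normoxia with solvent. Its log2 fold change was 2.13 (SE 0.13, adjusted p = 9.34e-09). The groups did not overlap for either gene. Lack of overlap was common, since 28.51% of all genes tested lay wholly higher in hypoxia and 28.79% wholly lower. In both genes, normoxic replicates 3 and 4 were the lowest.

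H1-2, a linker histone gene, rose by a log2 fold change of 1.32 (SE 0.16, adjusted p = 5.43e-06), with 10.1, 9.66 and 8.81 CPM in hypoxia with solvent, against 4.47, 4.32, 2.94, 2.55 and 4.64 CPM in normoxia with solvent. H3C6, whose transcript runs farthest past the hairpin among those shown, rose by 0.91 (SE 0.10, adjusted p = 1.3e-06). H2BC6, whose annotation begins just past that of H2BC5 and which was named after its values were seen, rose by 1.51 (SE 0.13, adjusted p = 7.19e-08). Smaller rises were called for H2BC4 (0.65) and H2BC15 (0.47), whereas H2BC21 (0.04) and H2BC11 (-0.01) were not called. The pairs rose too: H4C14 plus H4C15 was at 15.1, 14.4 and 14.5 CPM in hypoxia with solvent, and its log2 fold change was 1.57 (SE 0.07, adjusted p = 1.43e-11). H2AC18 plus H2AC19 rose by 0.97 (SE 0.11, adjusted p = 1.21e-06), and H4C11 plus H4C12 by 0.81 (SE 0.18, adjusted p = 9.88e-04). On their own, H4C11 had a fitted change of 3.61 (SE 1.25) and H2AC18 one of 0.73 (SE 1.10) that was not called, with errors far above those of the summed pairs.

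H2BC12 went the other way. It was at 16.8, 16.1 and 14.3 CPM in hypoxia with solvent, against 26.2, 25.6, 22.2, 23.4 and 27.3 CPM in normoxia with solvent, without overlap. The log2 fold change was -0.68 (SE 0.08, adjusted p = 2.1e-06). H4C3, an H4 gene with a short annotated transcript, had a change of -0.45 (SE 0.15, adjusted p = 0.0197). Its call was lost without hypoxia with solvent replicate 1 (-0.39, adjusted p = 0.0833) or replicate 2 (-0.37, adjusted p = 0.0971). The other members called lower, H2AC13 and H3C2, averaged 0.0954 and 0.0401 CPM in hypoxia with solvent, against 0.239 and 0.104 CPM in normoxia with solvent.

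**Figure D3:**
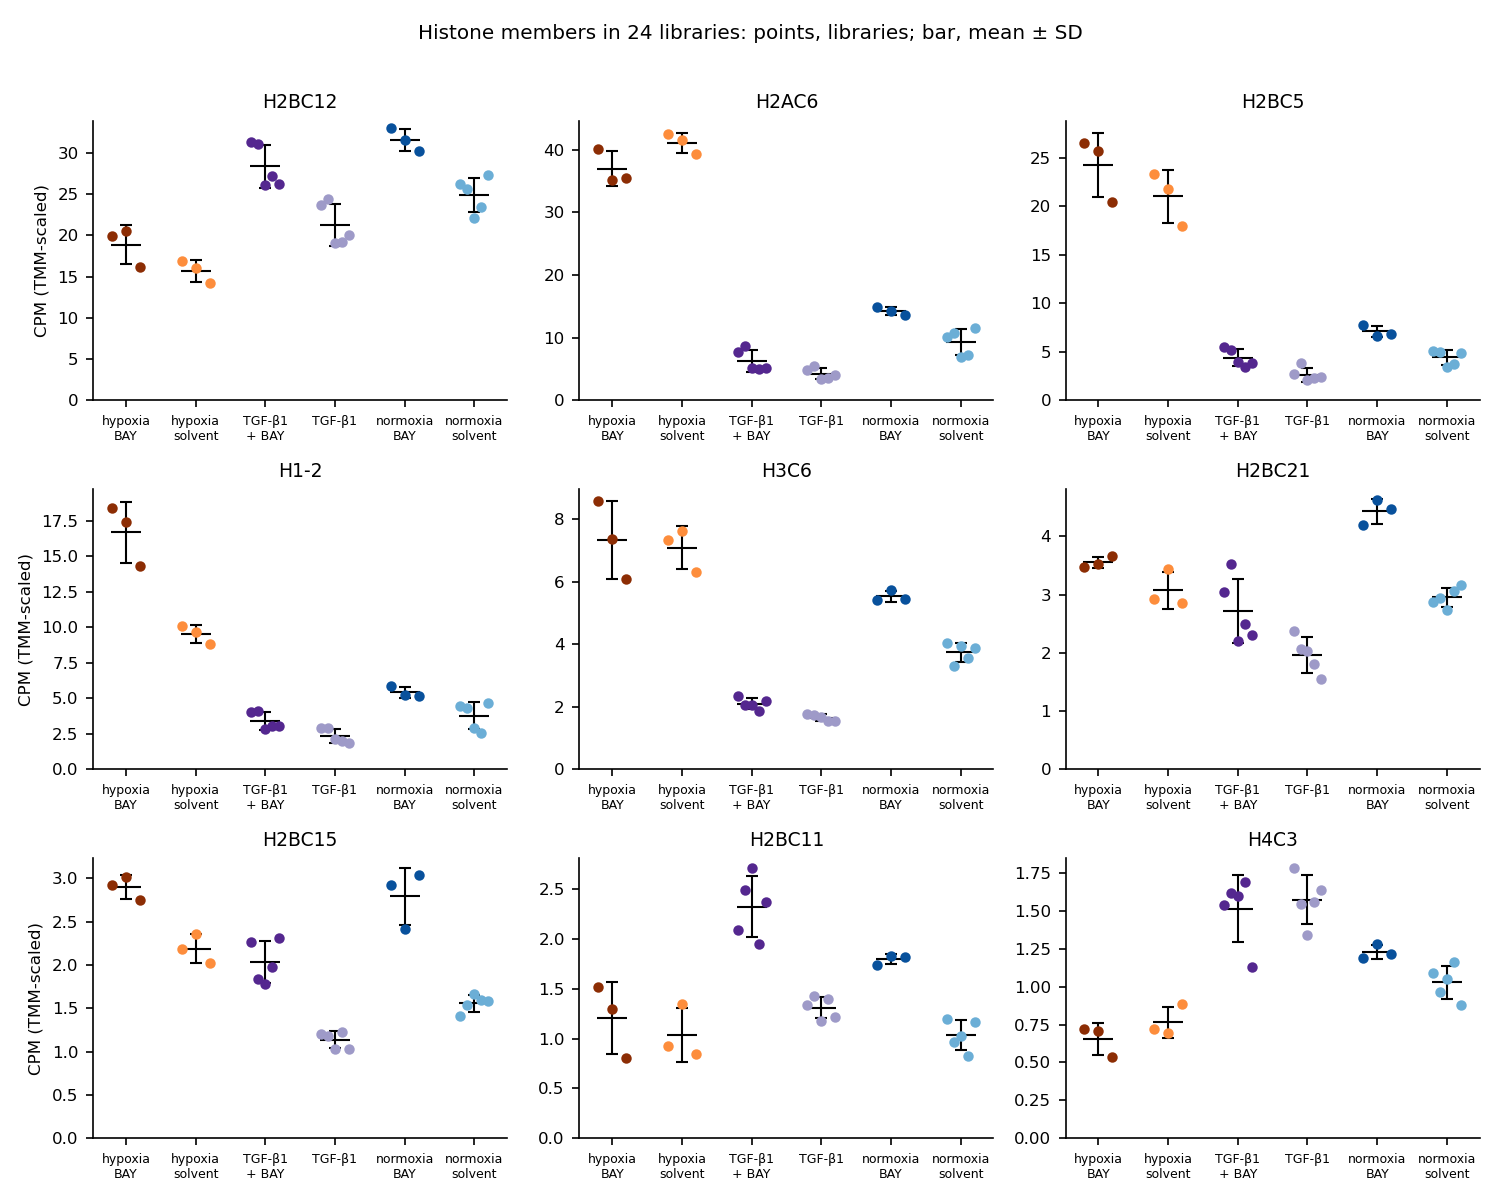
CPM (y axis) of 9 members in each library of the 6 groups (x axis); points are libraries and bars give the mean ± SD. H2AC6, H2BC5 and H1-2 are highest in both hypoxic groups, H2BC12 is lowest there, and H4C3 is highest in the TGF-β1 groups, with a mean of 1.57 CPM for TGF-β1 alone.

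Genes of the histone mRNA pathway were counted from lists. S phase and DNA replication genes fell together in hypoxia: 33 of 37 tested were lower and 2 higher (median log2 fold change -0.82), with PCNA, the replication clamp, at 68.1 CPM in hypoxia with solvent, against 239 CPM in normoxia with solvent. Of the 29 tested genes for 3′ end processing of histone pre-mRNA, 17 were lower and 3 higher (median -0.38). SLBP, the stem-loop binding protein, was at 79.9 ± 8.02 CPM in hypoxia with solvent (n = 3), against 120 ± 2.55 CPM in normoxia with solvent (n = 5), a log2 fold change of -0.61 (SE 0.06, adjusted p = 1.46e-07). In the list of histone gene transcription and cyclin E-CDK2, 7 of 11 were lower and 3 higher. NPAT, the coactivator of histone genes, fell by 0.41 on the log2 scale, and CCNE2 (cyclin E2) fell by 1.90.

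Other lists in hypoxia gave 6 of 18 lower and 5 higher for histone mRNA decay, 9 of 16 lower and 3 higher for histone chaperones, 7 of 11 lower and 2 higher for poly(A) tail addition, and 7 of 16 higher and 3 lower for tubular and epithelial identity. The only tested marker of other cells was not called. Of 12 replacement histones, which have ordinary poly(A) mRNAs, 8 were lower and 3 higher. H2AZ1, the H2A.Z gene, fell by 1.18 on the log2 scale.

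In the comparison of BAY with solvent in normoxia, histone members were called in 1 direction. Of 39 tested, 19 were higher and 0 lower, and 38 had a positive log2 fold change. Of all genes tested 43.9% were called, 20.6% higher and 23.3% lower. The median was 0.60 for the tested members and 0.00 for all genes tested. With the solvent libraries of each side alone, the counts were 17 higher and 1 lower, and 16 higher and 0 lower. Both counts use the same BAY libraries. DESeq2 gave 17 called and limma voom 19.

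H2BC12 was at 33.0, 31.5 and 30.3 CPM with BAY, against 22.2 to 27.3 CPM with solvent (log2 fold change 0.35, SE 0.08, adjusted p = 0.00161). H2AC6 was at 14.9, 14.2 and 13.6 CPM with BAY, above all 5 solvent libraries (0.62, SE 0.13, adjusted p = 0.00206). Among all genes tested, 20.69% likewise lay wholly higher with BAY and 24.28% wholly lower. The H2B genes H2BC15 (0.85, SE 0.10, adjusted p = 8.35e-06), H2BC4 (0.87, SE 0.13, adjusted p = 7.49e-05) and H2BC21 (0.59, SE 0.08, adjusted p = 3.74e-05) had the smallest adjusted p-values. H2BC15 was at 2.93, 2.42 and 3.03 CPM with BAY, against 1.41, 1.54, 1.67, 1.60 and 1.58 CPM with solvent.

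Other calls were H2BC5 (0.69), H3C6 (0.57), H2BC11 (0.80), H2AC11 (0.92) and H1-2 (0.53). The call of H1-2 was lost without normoxia with BAY replicate 1 (0.46, adjusted p = 0.0940) or replicate 2 (0.55, adjusted p = 0.0523). H2AC12, a low member at 0.153, 0.101 and 0.0862 CPM with BAY, against 0.00983 to 0.0433 CPM with solvent, had the largest change (1.95, SE 0.47, adjusted p = 0.00357). Its highest levels, which let it pass the filter on low counts, were in normoxia with BAY and hypoxia with solvent. The filter thus favoured a rise of this gene here. By class, 9 of 12 H2B, 6 of 9 H2A, 3 of 6 H3, 1 of 3 H1 and 0 of 9 H4 genes were called. Of the 9 H4 genes, 4 belong to pairs that trade reads, and the summed pairs were called: H4C14 plus H4C15 was at 6.92, 6.80 and 6.02 CPM with BAY, above all 5 solvent libraries, with a log2 fold change of 0.43 (SE 0.07, adjusted p = 7.59e-05), and H4C11 plus H4C12 had 0.51 (SE 0.18, adjusted p = 0.0328). The other 5 H4 genes, H4C3, H4C5, H4C8, H4C9 and H4C16, have at least 95.3% of their 31-base stretches to themselves and were not called. H4C3 had 0.26 (SE 0.15), and H2AC18 plus H2AC19 had 0.06 (SE 0.11), not called.

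With BAY in normoxia, pathway genes went both ways. Of 37 S phase genes, 17 were higher and 6 lower (median log2 fold change 0.13), and RRM2, the ribonucleotide reductase subunit that supplies DNA precursors, was at 707 ± 14.5 CPM with BAY (n = 3), against 177 ± 16.0 CPM with solvent (n = 5). PCNA was at 230 CPM with BAY, against 239 CPM with solvent, and was not called. SLBP was higher by 0.29 on the log2 scale and CCNE2 by 0.56, while NPAT (0.05) was not called. Counts were 4 higher and 10 lower of 29 for 3′ end processing, 4 and 3 of 11 for histone gene transcription, 3 and 4 of 18 for decay, 3 and 3 of 12 for replacement histones, 3 and 5 of 16 for chaperones, 2 and 4 of 11 for poly(A) tail addition, and 6 and 4 of 16 for identity genes.

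In hypoxia the BAY comparison gave fewer calls. Of 39 tested members 6 were higher and 1 lower, with 37.9% of all genes called, 16.5% higher and 21.4% lower. The median was 0.20 for the tested members and -0.02 for all genes. H1-2 was called and held its call without any single library: 18.4, 17.4 and 14.3 CPM in hypoxia with BAY, against 10.1, 9.66 and 8.81 CPM in hypoxia with solvent (log2 fold change 0.80, SE 0.18, adjusted p = 0.00274). H2BC15 (0.39), H2BC4 (0.45) and H2BC12 (0.25) were also called. H2AC6 (-0.16), H2BC5 (0.20), H3C6 (0.04) and H2BC21 (0.20) were not called. H4C14 plus H4C15 was lower with BAY, at 11.7, 11.3 and 11.7 CPM, against 15.1, 14.4 and 14.5 CPM in hypoxia with solvent (-0.35, SE 0.07, adjusted p = 0.00135). H2AC18 plus H2AC19 (0.00) and H4C11 plus H4C12 (0.10) were not called.

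These counts rest on few libraries. The number called was 4 without hypoxia with BAY replicate 1, 3 without its replicate 2, and 4 without any one of the 3 libraries of hypoxia with solvent. H2BC15 lost its call without hypoxia with BAY replicate 2 or hypoxia with solvent replicate 3 (adjusted p = 0.0530 and 0.0587). H2BC4 did so without replicate 1 or 2 of hypoxia with BAY or replicate 1 or 3 of hypoxia with solvent (highest adjusted p = 0.103), and H2BC12 without replicate 1 or 2 of hypoxia with BAY or replicate 2 or 3 of hypoxia with solvent (highest adjusted p = 0.158). Pathway counts were 17 higher and 2 lower of 37 for S phase genes (median 0.16), with RRM2 at 230 ± 34.2 CPM in hypoxia with BAY, against 77.5 ± 1.81 CPM in hypoxia with solvent (n = 3 each). They were 6 and 11 of 29 for 3′ end processing, 4 and 3 of 11 for histone gene transcription, 5 and 5 of 18 for decay, 1 and 3 of 12 for replacement histones, 4 and 4 of 16 for chaperones, 1 and 4 of 11 for poly(A) tail addition and 4 and 6 of 16 for identity genes. SLBP was higher by 0.27 and NPAT by 0.23 on the log2 scale.

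Whether the BAY difference itself depended on oxygen was tested as an interaction. Of 39 members 7 were called, with 16.8% of all genes called and 7.92% called lower. All 7 were lower, meaning that the log2 difference between BAY and solvent was lower in hypoxia than in normoxia. They were H2AC12 (-2.73, SE 0.71, adjusted p = 0.0165), H2AC6 (-0.79, SE 0.20, adjusted p = 0.0165), H3C6 (-0.53, SE 0.16, adjusted p = 0.0292), H2BC21 (-0.40, SE 0.13, adjusted p = 0.0471) and, named after their values were seen, H2BC6 (-0.77), H3C10 (-1.12) and H2AC17 (-1.10). H4C14 plus H4C15 had a smaller adjusted p than any single member (-0.78, SE 0.10, adjusted p = 7.81e-05), and the other pairs were not called (-0.05 for H2AC18 plus H2AC19 and -0.41 for H4C11 plus H4C12). H2AC12 had a BAY change of -0.78 in hypoxia (not called), against 1.95 in normoxia. It passed the filter on low counts through normoxia with BAY and hypoxia with solvent, which favours a negative interaction, so its call gives no support.

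Within the sides of the library split, 1 higher and 8 lower members were called with the solvent libraries of one side, and 0 higher and 4 lower with those of the other. The count of 7 was not steady. It was 1 without normoxia with BAY replicate 1, 4 without replicate 2 and 3 without replicate 3 of that group. It was 4 without hypoxia with BAY replicate 3, and 4 and 3 without hypoxia with solvent replicates 1 and 2. H2AC6 lost its call without normoxia with BAY replicate 1 or 2 (highest adjusted p = 0.0670), and H2AC12 without normoxia with BAY replicate 1 or hypoxia with solvent replicate 1 (highest adjusted p = 0.0708). H3C6 lost it in 7 of 14 such fits (without replicates 1, 2 or 3 of normoxia with BAY, 2 or 3 of hypoxia with BAY, or 1 or 2 of hypoxia with solvent), H2BC21 and H3C10 in 11 of 14 each, and H2BC6 and H2AC17 in 2 of 14 each. The BAY and hypoxia comparisons share control libraries, so their values are given side by side and not as a relation.

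**Figure D4:**
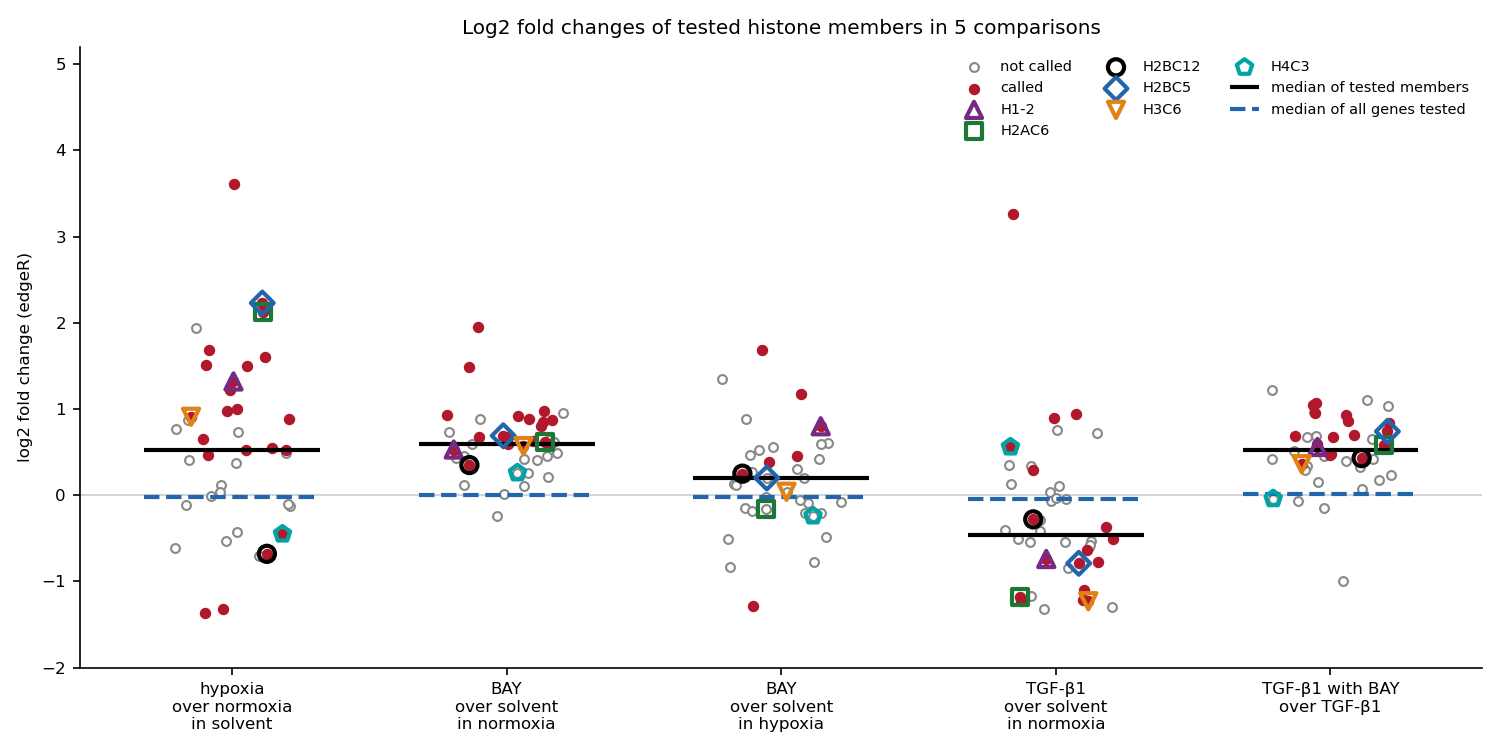
Log2 fold changes from edgeR (y axis) of the tested members in the 5 two-group comparisons (x axis): filled points were called, open points were not, and 6 members are ringed. Solid bars are the median of the tested members and dashed bars the median of all genes tested; the solid bar is at 0.60 with BAY in normoxia and at -0.46 with TGF-β1.

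With TGF-β1 against solvent in normoxia, more members were lower than higher. Of 40 tested, 12 were lower and 5 higher (edgeR, 18 libraries). Of all 21639 genes tested 62.0% were called, 29.5% higher and 32.5% lower. The share of members called lower was thus close to that of all genes, and the share called higher was smaller. The median was -0.46 for the tested members and -0.04 for all genes. Counts within each side of the library split were 2 higher and 15 lower, and 1 higher and 11 lower.

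H3C6 had the smallest adjusted p. It was at 1.76, 1.75, 1.68, 1.56 and 1.54 CPM with TGF-β1, against 4.03, 3.29, 3.95, 3.55 and 3.90 CPM with solvent, without overlap. Its log2 fold change was -1.23 (SE 0.08, adjusted p = 1.05e-10). H2AC6 was at 4.83, 5.43, 3.40, 3.54 and 4.12 CPM with TGF-β1, against 10.2, 10.7, 6.95, 7.30 and 11.5 CPM with solvent, again without overlap (-1.18, SE 0.18, adjusted p = 1.74e-05). Among all genes tested, 22.85% lay wholly lower with TGF-β1 and 27.98% wholly higher. For H2AC6, TGF-β1 replicates 1 and 2 and solvent replicates 1, 2 and 5, which lie on one side of the library split, were the higher ones in their groups.

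H2BC5 (-0.79, SE 0.17, adjusted p = 4.36e-04), H1-2 (-0.74, SE 0.17, adjusted p = 0.00107), H2BC21 (-0.64, SE 0.12, adjusted p = 1.55e-04), H2BC15 (-0.51, SE 0.10, adjusted p = 2.48e-04) and H2BC12 (-0.28, SE 0.07, adjusted p = 0.00287) also fell. H2BC4 had -0.37, a call lost without any one of normoxia with solvent replicates 1, 2 and 5 or TGF-β1 replicates 1, 3 and 5 (highest adjusted p = 0.0940). H4C14 plus H4C15 fell by 1.22 on the log2 scale (SE 0.07, adjusted p = 3.61e-11), to 2.19, 2.10, 2.08, 2.24 and 2.26 CPM with TGF-β1. Neither copy alone was called. H2AC18 plus H2AC19 had -0.25 and H4C11 plus H4C12 0.11, and neither was called.

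A few members were higher with TGF-β1. H4C3 was at 1.78, 1.55, 1.34, 1.56 and 1.64 CPM with TGF-β1, against 1.09, 0.965, 1.05, 1.16 and 0.877 CPM with solvent, without overlap (0.56, SE 0.12, adjusted p = 3.59e-04). On one side of the library split (TGF-β1 replicates 3, 4 and 5 and solvent replicates 3 and 4) the change was 0.42 (adjusted p = 0.0517), and on the other it was 0.74, which was called. H2BC11 had 0.29 (adjusted p = 0.0366), a call lost without any one of normoxia with solvent replicates 2, 3 and 4 or TGF-β1 replicates 1, 2 and 4 (highest adjusted p = 0.105). The others were H2BC9, H1-3 and H4C11, the last of which trades reads with H4C12.

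Pathway genes mostly went up with TGF-β1. Of 37 S phase genes 31 were higher and 2 lower (median log2 fold change 0.41), with PCNA at 358 CPM with TGF-β1, against 239 CPM with solvent. Of 29 genes for 3′ end processing 18 were higher and 1 lower (median 0.14), of 11 for histone gene transcription 8 and 0, of 18 for decay 9 and 3, and of 11 for poly(A) tail addition 5 and 1. SLBP was at 137 ± 5.58 CPM with TGF-β1, against 120 ± 2.55 CPM with solvent (n = 5 each), a log2 fold change of 0.14. NPAT was higher by 0.23, CCNE2 by 1.19 and CDC6, which loads the replicative helicase, by 0.99. Replacement histones were 7 higher and 3 lower of 12, with H3-3B (histone H3.3) at 0.68, chaperones 10 and 5 of 16, and identity genes 5 and 10 of 16. The 1 tested marker of other cells was lower.

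With hypoxia and TGF-β1 each set against the same solvent libraries, the values of 3 abundant members and of PCNA, which is no member, were as follows. H2AC6 had 2.13 with hypoxia and -1.18 with TGF-β1, and H2BC5 had 2.23 with hypoxia and -0.79 with TGF-β1. H2BC12 had -0.68 with hypoxia and -0.28 with TGF-β1. PCNA had -1.83 with hypoxia and 0.53 with TGF-β1. Since the comparisons share 5 control libraries, these are values side by side and not a tested relation.

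With BAY added to TGF-β1, members were again called in 1 direction. Of 40 tested, 17 were higher and 0 lower, and 36 had a positive log2 fold change. Of all genes tested 29.5% were called, 13.9% higher and 15.6% lower. The median was 0.53 for the tested members and 0.01 for all genes. Within each side of the library split 10 and 11 members were called, all higher, in fits for which the share of all genes called is not given.

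H2BC15 had the smallest adjusted p. It was at 2.26, 1.84, 1.78, 1.97 and 2.31 CPM with TGF-β1 and BAY, against 1.21, 1.18, 1.03, 1.23 and 1.03 CPM with TGF-β1 (0.86, SE 0.10, adjusted p = 3.26e-06). H2BC11 was at 2.09, 2.49, 2.71, 1.95 and 2.37 CPM with TGF-β1 and BAY, against 1.34, 1.43, 1.18, 1.39 and 1.22 CPM with TGF-β1 (0.84, SE 0.11, adjusted p = 1.57e-05). The groups did not overlap for either gene. Among all genes tested, 8.80% lay wholly higher with BAY added and 12.96% wholly lower. H2BC12 was at 31.3, 31.1, 26.1, 27.2 and 26.2 CPM with TGF-β1 and BAY, against 23.7, 24.4, 19.1, 19.2 and 20.1 CPM with TGF-β1 (0.43, SE 0.07, adjusted p = 1.8e-04).

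H2BC5 (0.74), H3C6 (0.36) and H2BC21 (0.48) were called in every fit that left out 1 library. The call of H2AC6 (0.58, adjusted p = 0.0214) was lost without TGF-β1 replicate 3 or 4 or TGF-β1 with BAY replicate 1 or 2 (highest adjusted p = 0.0666). That of H1-2 (0.56) was lost without TGF-β1 replicate 4 or 5 or TGF-β1 with BAY replicate 1 or 2 (highest adjusted p = 0.0539), and that of H2BC4 (0.47) without TGF-β1 with BAY replicate 2 (adjusted p = 0.0554). H4C3 (-0.04) was not called. H4C14 plus H4C15 was at 4.12, 3.61, 3.77, 3.75 and 3.37 CPM with TGF-β1 and BAY, all above the TGF-β1 libraries, a log2 fold change of 0.79 (SE 0.07, adjusted p = 1.23e-07). H2AC18 plus H2AC19 (-0.05) and H4C11 plus H4C12 (0.10) were not called.

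Pathway genes were called in both directions. S phase genes gave 6 higher and 12 lower of 37 (median -0.01), with TOP2A (topoisomerase II) higher by 0.41 and PCNA at -0.11, a called fall. Counts were 3 higher and 4 lower of 29 for 3′ end processing, 1 and 0 of 11 for histone gene transcription, 3 and 3 of 18 for decay, 5 and 2 of 12 for replacement histones, 1 and 5 of 16 for chaperones, 1 and 1 of 11 for poly(A) tail addition and 2 and 5 of 16 for identity genes. SLBP (-0.08) and NPAT (0.05) were not called.

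Whether the BAY difference depended on TGF-β1 was tested in the same fit. Of 40 members 0 were called by edgeR, 0 by DESeq2 and 0 by limma voom, and 0 had an unadjusted p under 0.05 in edgeR, while 20.7% of all genes were called. Within the sides of the library split, 1 member was called higher on one side and 2 were called lower on the other. The libraries of normoxia with BAY were the same in both fits. The median was 0.02 for the members and 0.03 for all genes. With pairs of copies summed, H4C14 plus H4C15 was called (0.38, SE 0.11, adjusted p = 0.0176), with a BAY change of 0.79 with TGF-β1, against 0.43 without it. SLBP had an interaction of -0.35 (SE 0.04, adjusted p = 1.69e-05) and RRM2 one of -1.80 (SE 0.07, adjusted p = 8.37e-12). A p that misses the threshold does not show that members responded alike.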

How the data were processed

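Poly(A) RNA-seq of HK-2 cells was measured in 24 libraries. The deposited values are estimated counts, 1 row for each Ensembl gene. The submitters' processing notes name Salmon, DESeq2 and GRCh38. No source used here gives versions, annotation release or strand. Of the values above 0, 48.6% were not whole (to within 1e-06), and values were rounded. All columns were mapped to samples by title (0 left over). Members and gene lists were chosen with earlier results of these data known. Symbols came from a names table (58919 IDs matched), and transcripts from GENCODE 29 (4 members matched by older symbol).

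In edgeR 4.0.16 (R 4.3.3), libraries were scaled by TMM, genes were filtered by filterByExpr, and the quasi-likelihood test was run on 14 libraries (oxygen and BAY) and on 18 (TGF-β1 and BAY), with 8 libraries in both and p adjusted by Benjamini-Hochberg over all genes tested. CPM were TMM-scaled over all 24 libraries. Called means an adjusted p under 0.05; a fold change is a log2 value. Named were the 12 members with the highest mean CPM, the called members with the largest rise and fall at 1 CPM or more in each two-group comparison, the smallest-p member of each interaction, SLBP, NPAT, and the 2 called genes of each list with the largest changes in a comparison. Other members or genes named, and their values in other comparisons, were chosen after their values were seen. Some genes the rule names are not reported here. The script was checked on simulated data. All 39 replicate pairs differed by more than sampling noise (chi-square per degree of freedom 5.46 to 48.1). Alternatives were DESeq2 1.42.0, limma voom 3.58.1, DESeq2 size factors, no filter, 1 fit of all libraries, a replicate block, merged copies, members by older symbol, the sum without TMM and leaving out each library. Library subsets A and B, summed near-identical pairs and the sum without 4 copies were added after seeing the data.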

Additional observations from a re-analysis of the deposited data

Results flagged for a closer look

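In groups of 5 libraries, a library was picked out when its gap to the nearest other was a large part of the group's range (Dixon's test, 95% level). Among 63 sets of 5 values 7 were picked out, and chance flags about 1 in 20. H4C15 was at 0 CPM in TGF-β1 replicate 4, against 1.64 to 2.07 CPM in the other 4 libraries, and H4C14 at 2.24 CPM there, against 0.194 to 0.553 CPM. H2AC18 was at 0 CPM in TGF-β1 replicate 2, against 1.42 to 1.92 CPM. H2AC11 was at 0.691 CPM in TGF-β1 replicate 4, against 0.465 to 0.528 CPM. H4C3 was at 1.13 CPM in TGF-β1 with BAY replicate 5, against 1.54 to 1.69 CPM. H2AC17 was at 0.582 CPM in TGF-β1 with BAY replicate 1, against 0.357 to 0.417 CPM. H4C14 plus H4C15 was at 5.57 CPM in normoxia with solvent replicate 5, against 4.66 to 4.89 CPM.

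The log2 change made by BAY differed between hypoxia and normoxia, by the interaction test, for H2AC12 (-2.73), H3C10 (-1.12), H2AC17 (-1.10), H2AC6 (-0.79), H2BC6 (-0.77), H3C6 (-0.53), H2BC21 (-0.40) and the pair H4C14 plus H4C15 (-0.78). Between TGF-β1 and its absence it differed for H4C14 plus H4C15 (0.38). The limits given above for H2AC12 (the filter on low counts) and H2AC17 (shared stretches) hold here too.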

How the results depend on the processing

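Single members were followed through the alternatives only if named by the rule or called in an interaction. Of their 61 called changes, 0 changed sign in any alternative, and 27 lost the call in at least 1. The other called members, mostly of low level, were not followed in this way. The oxygen by BAY count of 7 was 3 with no filter on low counts, 3 with the replicate block, 4 with all 24 libraries in 1 fit and 4 with library subset B alone (TGF-β1 groups replicates 3 to 5, solvent 3 and 4; subset A holds their other replicates). The hypoxia count of 22 was 14 with the replicate block and 11 of 22 tested with copies of the same protein merged. The TGF-β1 with BAY count of 17 was 10 with subset A alone and 11 with subset B alone, which have fewer libraries. The TGF-β1 by BAY count of 0 was 1 with near-identical pairs summed, 1 in subset A alone and 2 in subset B alone. Leaving out 1 library gave 15 to 20 for hypoxia, 14 to 18 for BAY in normoxia, 3 to 6 for BAY in hypoxia, 1 to 7 for oxygen by BAY, 13 to 17 for TGF-β1, 12 to 17 for TGF-β1 with BAY and 0 to 0 for TGF-β1 by BAY. Uncalled changes near 0 turned sign: H2BC11 in hypoxia was 0.01 with DESeq2 size factors, 0.00 with no filter, 0.01 with DESeq2, 0.17 in subset B alone and -0.23 to 0.11 with 1 library left out. In such fits H2BC21 in hypoxia was -0.03 to 0.09, H3C6 with BAY in hypoxia -0.08 to 0.16, and H4C3 with BAY and TGF-β1 -0.09 to 0.06. Without H2AC18, H2AC19, H4C14 and H4C15 the summed CPM was 128 in hypoxia with BAY, 115 in hypoxia with solvent, 87.9 in normoxia with BAY and 61.9 in normoxia with solvent. Over all 69 members without TMM, the summed CPM was 135 in hypoxia with solvent, 106 in normoxia with BAY and 73.6 in normoxia with solvent. The cause was not tested. Over 51 same-numbered pairs from all groups, deviations correlated at -0.47 to 0.56, median 0.07, so no steady pairing by number was seen. In the groups of 5, however, replicates 1 and 2 lay on one side of the library split and replicates 3 and 4 on the other. Whether same-numbered libraries of these groups shared handling was not tested. At this depth, members under 0.1 CPM are hard to test, and 30 members were not tested in the hypoxia fit and 29 in the TGF-β1 fit.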
